A study of Homo sapiens with 12 samples.

Results

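The 10 genes described here encode simple keratins and vimentin (KRT8, KRT18, KRT19, VIM), the classical cadherins of epithelia and mesenchyme (CDH1, CDH2) and the repressors that drive the epithelial-mesenchymal transition, or EMT (SNAI1, SNAI2, ZEB1, ZEB2). They are 10 of the 18404 genes named by the array annotation, and each is represented by its probe set with the highest mean. They were selected on the measured values, because SNAI2 and the simple keratins were higher in one cell line than in the other. The difference between the lines is therefore described for them and not tested. The response to induction was not used to choose them and was tested, but it shares arrays with the line difference that chose them. The induction changes are therefore not independent of that choice.

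RNA was measured on 12 arrays of 2 stable human embryonic kidney lines, both made from HEK 293 Flp-In T-REx cells, in which a transgene sits at a single landing site under a doxycycline-controlled promoter. The WT line carried Ero1α-WT and the mutant line carried Ero1α-C104A/C131A. Ero1α (gene ERO1A) is the oxidase that passes oxidising equivalents to protein disulfide isomerase in the endoplasmic reticulum, and the replaced cysteines belong to disulfides that hold the enzyme back. Cells of either line received doxycycline for 24 h or none, which gives 4 groups of 3 replicates (lettered A to C), and all cells were grown with hygromycin B and blasticidin. The labels do not say whether a line is 1 clone or a pool. With 1 line per construct, the construct and any other difference between the lines cannot be told apart in the uninduced or induced comparison. Cells without a transgene that received the drug were not analysed here, so drug and transgene were not separated. P-values measure the spread between these samples, which the labels call biological replicates without saying what separates them.

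Keratins 8, 18 and 19 form the intermediate filaments of simple epithelia as pairs of a type II and a type I chain, whereas vimentin forms those of mesenchymal cells. During EMT, SNAIL and ZEB proteins bind E-boxes in promoters such as that of CDH1 and repress them, epithelial cadherin falls, and vimentin and neural cadherin rise. Members of the miR-200 family and the ZEB mRNAs repress each other, and miR-34 acts in a similar loop with SNAI1. HEK 293 cells hold keratins and vimentin together and are a mixed case between epithelial, mesenchymal and neuronal programmes.

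The mature arms of the miR-200 family and miR-34a-5p, which take part in these loops, are shown 5′ to 3′ from RefSeq (GRCh38.p14). The seed, bases 2 to 8, is in capitals. The first pair shares the seed AACACUG and the next 3 share AAUACUG.
hsa-miR-200a-3p: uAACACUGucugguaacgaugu
hsa-miR-141-3p: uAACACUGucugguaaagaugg
hsa-miR-200b-3p: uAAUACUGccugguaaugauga
hsa-miR-200c-3p: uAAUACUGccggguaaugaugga
hsa-miR-429: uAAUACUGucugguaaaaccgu
hsa-miR-34a-5p: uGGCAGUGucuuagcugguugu
The arrays measured their precursor genes and not these mature arms.

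The upstream bases of KRT8, VIM and ZEB1 are printed because the first 2 genes were among those higher in the mutant line, and ZEB1 was the gene whose windows held the E-box of SNAIL and ZEB factors. Of the 10 genes, 5 had a RefSeq promoter entry (KRT8, VIM, CDH2, ZEB1 and ZEB2). Each window is the 250 bases before a transcription start in GRCh38.p14: chr12:52926470-52926719 on the minus strand for KRT8, chr10:17227991-17228240 on the plus strand for VIM, and chr10:31318167-31318416 on the plus strand for the first of 7 windows of ZEB1. Capitals mark CACCTG or CAGGTG, the E-box of SNAIL and ZEB factors on both strands, and GGGCGG or CCGCCC, the GC box on both strands.
KRT8 upstream window: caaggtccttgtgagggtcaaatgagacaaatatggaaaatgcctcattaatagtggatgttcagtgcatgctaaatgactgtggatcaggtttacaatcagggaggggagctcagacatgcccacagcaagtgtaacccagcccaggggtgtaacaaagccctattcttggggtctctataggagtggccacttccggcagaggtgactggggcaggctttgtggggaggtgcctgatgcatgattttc
VIM upstream window: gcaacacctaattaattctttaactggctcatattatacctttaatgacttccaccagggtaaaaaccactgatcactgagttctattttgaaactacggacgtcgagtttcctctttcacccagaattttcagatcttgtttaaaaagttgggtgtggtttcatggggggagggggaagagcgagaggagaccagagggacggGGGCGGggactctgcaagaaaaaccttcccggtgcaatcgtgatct
ZEB1 upstream window: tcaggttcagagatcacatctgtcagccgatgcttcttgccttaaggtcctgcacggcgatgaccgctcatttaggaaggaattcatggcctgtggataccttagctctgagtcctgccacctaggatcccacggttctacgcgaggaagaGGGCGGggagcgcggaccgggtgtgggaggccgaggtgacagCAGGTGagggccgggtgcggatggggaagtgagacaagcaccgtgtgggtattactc
The KRT8 window held neither motif and the VIM window held 1 GC box. The KRT8 window, the only one on file for that gene, lies inside its RefSeq span (chr12:52897191-52949860). Bases upstream of the end of that span were therefore not searched. The VIM window and this ZEB1 window directly precede their spans. The ZEB1 window held 1 GC box and 1 CAGGTG, which lay 57 to 52 bases upstream of the start. Another ZEB1 window held this E-box in 2 places, and the windows of KRT8, VIM, CDH2 and ZEB2 held it in 0. Among all 35116 windows of this length, 17.5% held the SNAIL and ZEB E-box and 42.6% held a GC box. The wider E-box CANNTG, which includes it, occurred in 61.8% of windows and in 2 places in the KRT8 window.

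Array medians lay between 6.36 and 6.43 on the log2 scale, and the r between arrays of a group, over all probe sets, was 0.992 to 0.996. ERO1A rose on induction by a log2 value of 2.13 ± 0.06 (SE) in the WT line and 2.43 ± 0.06 in the mutant line, with adjusted p of 1.42e-08 and 3.08e-09 (limma, Benjamini-Hochberg over all 18404 genes). For 11 genes that mark kidney development the mean was 7.31 to 7.57 on the 12 arrays, above the array medians. In uninduced WT cells the mean of these markers was 7.33. Among them SIX2 averaged 8.25 and SALL1 8.11 there, whereas EYA1 averaged 7.64, CITED1 7.37 and GATA3 7.24. For 18 neuronal and adrenal medulla markers the mean was 6.25 to 6.43, near the array medians. The mean of 10 fibroblast markers was 4.76 to 5.07 on the 12 arrays, that of 10 leukocyte markers 5.21 to 5.45 and that of 10 endothelial markers 4.93 to 5.27, all below the array medians. The files used here hold no detection calls. Gene positions below are RefSeq spans in GRCh38.p14.

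SNAI2 on chromosome 8, which encodes SLUG, a repressor of epithelial genes that acts in neural crest and mesenchymal cells, differed most between the lines. Its log2 level was 5.33, 5.17 and 5.36 in uninduced WT cells (replicates A, B and C) and 5.59, 4.78 and 5.63 in induced WT cells. It was 7.82, 7.88 and 7.95 in uninduced mutant cells and 7.78, 7.89 and 7.76 in induced mutant cells. All 6 mutant arrays lay above all 6 WT arrays, and within a line the uninduced and induced values interleaved. The mean was 6.05-fold higher in the mutant line without induction (log2 difference 2.60 ± 0.18, SE) and 5.58-fold higher with it (2.48 ± 0.18). In the difference averaged over both states it stood 4 of 18404 genes from the highest. In WT cells SNAI2 lay below the array medians, where array fold changes tend to be understated. On induction it changed by 0.05 on the log2 scale in the WT line (95% interval -0.34 to 0.43) and by -0.07 in the mutant line (-0.46 to 0.31). The low array in the WT line was induced replicate B. Without it the induction change there was 0.32 and the difference between the induced lines was 2.20.

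SNAI1 (chr20:49982980-49988886), which encodes SNAIL, the best known repressor of CDH1, was also higher in the mutant line. Its level was 6.22, 6.07 and 6.21 in uninduced WT cells, 6.05, 6.28 and 6.20 in induced WT cells, 6.71, 6.68 and 6.88 in uninduced mutant cells and 6.59, 6.52 and 6.45 in induced mutant cells. The order of the groups was uninduced mutant, induced mutant and then the WT groups, which interleaved. The WT values lay below the array medians and the mutant values not far above them. The difference between the lines was 1.50-fold without induction (log2 0.59 ± 0.08, SE) and 1.27-fold with it (0.34 ± 0.08). On induction SNAI1 had a change of -0.23 in the mutant line (95% interval -0.40 to -0.07), with no overlap between the groups, and 0.01 in the WT line. The unadjusted p in the mutant line was 0.0106 and the adjusted p 0.630 (limma), so it did not pass the threshold of 0.05. The change in the mutant line minus that in the WT line was -0.25 (-0.48 to -0.01), with adjusted p = 0.982 (limma).

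ZEB1 (chr10:31318417-31529804) and ZEB2 (chr2:144384081-144520119) encode zinc finger and homeodomain repressors that bind paired E-boxes. ZEB1 lay between 8.55 and 8.72 on all 12 arrays, and the groups overlapped. Its log2 difference between the lines was 0.02 ± 0.06 (SE) without induction and 0.04 ± 0.06 with it. ZEB2 was 7.86, 7.75 and 7.85 in uninduced WT cells, 7.70, 7.75 and 7.84 in induced WT cells, 7.88, 8.04 and 7.99 in uninduced mutant cells and 7.89, 8.13 and 7.88 in induced mutant cells. The mutant arrays were above the WT arrays in each state by small margins, and the mean differences were 0.15 ± 0.08 and 0.20 ± 0.08. Among the 4 repressors the uninduced lines differed by 2.60 for SNAI2 and 0.59 for SNAI1, against 0.02 for ZEB1 and 0.15 for ZEB2.

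A second probe set of ZEB2, with levels below the array medians, gave other values. It read 5.06, 5.55 and 5.32 in uninduced WT cells and 4.92, 4.84 and 4.78 in induced WT cells, against 5.25, 5.47 and 5.35 in uninduced and 5.64, 5.58 and 5.68 in induced mutant cells. Every induced WT array was below the uninduced ones, and every induced mutant array was above its uninduced ones. The log2 changes were -0.46 and 0.28, and their difference was 0.74 (95% interval 0.39 to 1.08). The adjusted p of this difference over all 32321 probe sets was 0.913 (limma), so it did not pass. The uninduced lines differed by 0.04 on this probe set and the induced lines by 0.78.

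**Figure D1:**
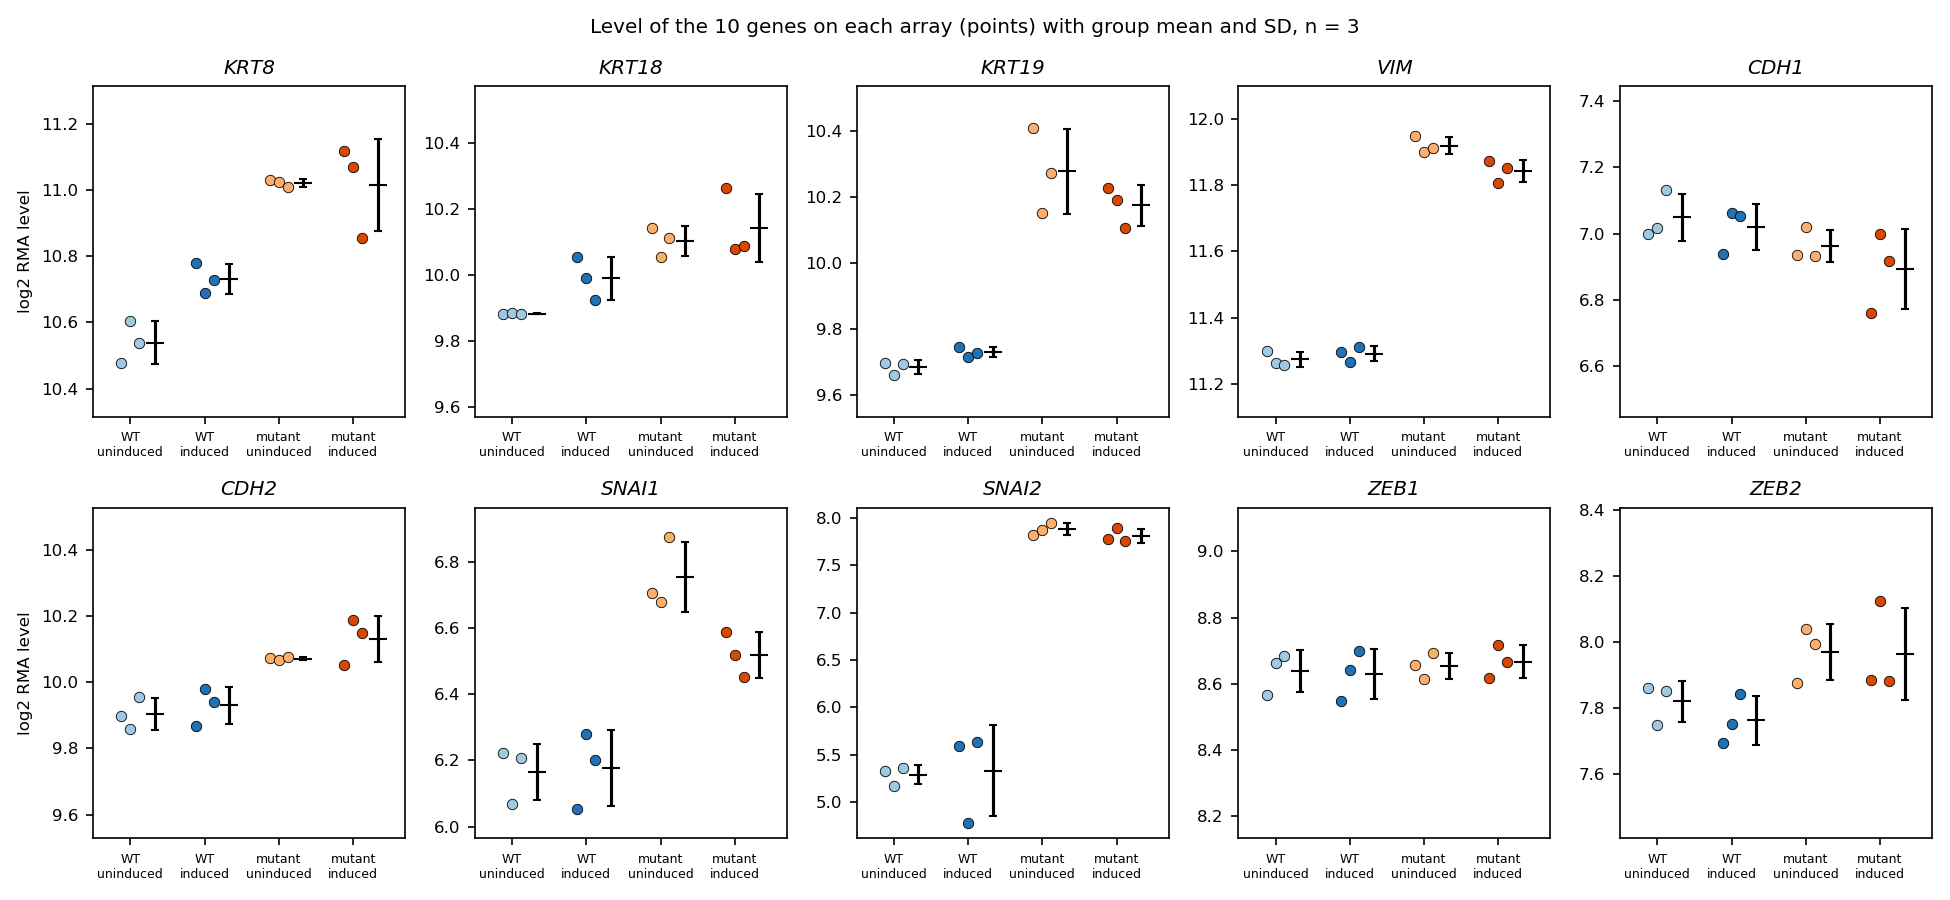
Log2 RMA level of each of the 10 genes on each array (points, replicates A, B and C from left to right) in the 4 groups, with the group mean and SD (n = 3) as a dash and bar. Each panel has its own vertical axis of at least 1 log2 unit. The 6 SNAI2 values of the mutant line lie between 7.76 and 7.95 and those of the WT line between 4.78 and 5.63.

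VIM (chr10:17228241-17237593), the filament protein of mesenchymal cells, was higher in the mutant line. Its level was 11.30, 11.26 and 11.26 in uninduced WT cells, 11.30, 11.27 and 11.31 in induced WT cells, 11.95, 11.90 and 11.91 in uninduced mutant cells and 11.87, 11.81 and 11.85 in induced mutant cells. The lowest mutant array was above the highest WT array. The difference was 1.56-fold without induction (log2 0.65 ± 0.05, SE) and 1.47-fold with it (0.55 ± 0.05). The induced mutant arrays were all below the uninduced ones, by a mean of 0.08. The change of -0.08 (95% interval -0.18 to 0.02) had an adjusted p of 0.881 (limma).

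KRT19 (chr17:41523617-41528308), the type I keratin without a tail domain, read 9.70, 9.66 and 9.70 in uninduced WT cells, 9.75, 9.72 and 9.73 in induced WT cells, 10.41, 10.15 and 10.27 in uninduced mutant cells and 10.23, 10.19 and 10.11 in induced mutant cells. The mutant line was again above the WT line on every array, 1.51-fold without induction (log2 0.59 ± 0.06, SE) and 1.36-fold with it (0.44 ± 0.06). The spread was wider in uninduced mutant cells (SD 0.13) than in uninduced WT cells (SD 0.02), a contrast that was not tested. On induction KRT19 changed by 0.05 in the WT line (95% interval -0.10 to 0.19) and -0.10 in the mutant line (-0.24 to 0.04).

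KRT8 (chr12:52897191-52949860), the type II partner of keratin 18, read 10.48, 10.60 and 10.54 in uninduced WT cells and 10.78, 10.69 and 10.73 in induced WT cells. In the mutant line it read 11.03, 11.02 and 11.01 without induction and 11.12, 11.07 and 10.86 with it. The 4 groups were ordered uninduced WT, induced WT and then the mutant groups, which interleaved. The lines differed 1.40-fold without induction (log2 0.48 ± 0.07, SE) and 1.22-fold with it (0.28 ± 0.07). On induction in the WT line the mean was higher by 0.19 (95% interval 0.04 to 0.34), with an unadjusted p of 0.0158 and an adjusted p of 0.996 (limma). In the mutant line the change was -0.01 (-0.16 to 0.14). The difference of the 2 changes was -0.20 (-0.41 to 0.01), with adjusted p = 0.982 (limma).

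KRT18 (chr12:52948855-52952906), the type I partner of keratin 8, read 9.88 on each uninduced WT array, 10.06, 9.99 and 9.93 in induced WT cells, 10.14, 10.06 and 10.11 in uninduced mutant cells and 10.26, 10.08 and 10.09 in induced mutant cells. Its group means stood in the order uninduced WT, induced WT, uninduced mutant and induced mutant, with small steps: the line difference was 0.22 ± 0.06 (SE) without induction and 0.15 ± 0.06 with it. The change on induction was 0.11 (95% interval -0.02 to 0.24) in the WT line and 0.04 (-0.09 to 0.17) in the mutant line. A second KRT18 probe set gave line differences of 0.13 ± 0.09 in both states. KRT8 and KRT18 are neighbours on chromosome 12, and their RefSeq spans overlap. Keratin pseudogenes are near copies, so part of these signals may be shared: KRT8P41 differed between the uninduced lines by 0.27, KRT18P59 by 0.09 and KRT18P55 by 0.17, all at levels below the array medians. Another 2 probe sets carry a microRNA symbol beside KRT18 or beside a KRT19 pseudogene and were assigned to neither gene. The one annotated with KRT18 differed by 0.30 between the uninduced and 0.14 between the induced lines, and the one with the KRT19 pseudogene by 0.54 and 0.67.

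CDH1 (chr16:68737292-68835537), epithelial cadherin, was the one gene of the 10 with a lower mean in the mutant line. It read 7.00, 7.02 and 7.13 in uninduced WT cells, 6.94, 7.06 and 7.05 in induced WT cells, 6.94, 7.02 and 6.93 in uninduced mutant cells and 6.76, 7.00 and 6.92 in induced mutant cells. The groups overlapped in both states. The differences were -0.09 ± 0.07 (SE) and -0.13 ± 0.07, where arrays of a group had a pooled SD of 0.08. Neural cadherin, CDH2 (chr18:27932879-28177130), read 9.90, 9.86 and 9.96 in uninduced WT cells, 9.87, 9.98 and 9.94 in induced WT cells, 10.07, 10.07 and 10.08 in uninduced mutant cells and 10.05, 10.19 and 10.15 in induced mutant cells. The mutant arrays were above the WT arrays of the same state, by 0.17 ± 0.05 and 0.20 ± 0.05. CDH1 and CDH2 were thus at 0.94-fold and 1.12-fold of their WT means in uninduced cells. In bulk RNA, fewer cells of a type and less RNA per cell cannot be told apart.

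Across the 10 genes, 8 had mutant arrays above all WT arrays of the same state, both without and with induction. The exceptions were CDH1 and ZEB1. Over all genes, 18.4% were higher without overlap in uninduced cells and 19.0% lower, and 16.4% and 19.9% in induced cells. By adjusted p, 10.8% of all genes were higher and 10.5% lower in uninduced cells, and 10.8% higher and 10.9% lower in induced cells. The median difference of the 10 genes was 0.35 without and 0.24 with induction, against -0.01 and -0.04 over all genes. Nothing is read from these shares and medians, since this difference chose the genes. Epithelial keratins and mesenchymal VIM stood on the same side, as did CDH2, SNAI1 and SNAI2.

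**Figure D2:**
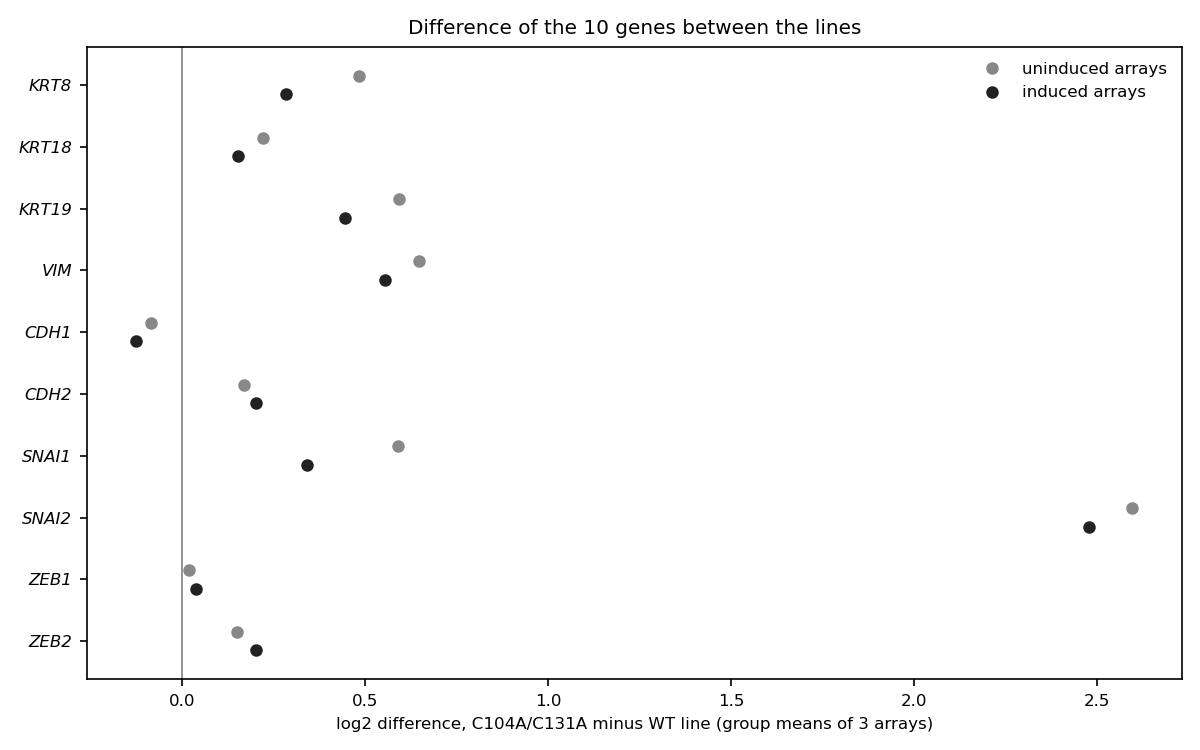
Log2 difference of group means, mutant line minus WT line, for each of the 10 genes on uninduced (grey) and induced (black) arrays, 3 arrays per group, drawn without intervals because the genes were chosen on this difference. SNAI2 lies at 2.60 and 2.48, CDH1 at -0.09 and -0.13, and the others between 0.02 and 0.65.

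Induction itself was then examined, to ask whether 24 h of either transgene moved these genes. In the WT line 0 of the 10 genes passed an adjusted p of 0.05 (limma), where 0.114% of all genes did. In the mutant line 0 passed, against 0.326% of all genes, and 0 differed in response between the lines, against 0% of all genes. At an unadjusted p under 0.05 there was 1 gene in each comparison, KRT8 in the WT line and SNAI1 in the other 2. Over all 18404 genes that limit was met by 820 in the WT line, 1082 in the mutant line and 774 for the difference. The smallest adjusted p among the 10 was 0.996 in the WT line, 0.630 in the mutant line and 0.982 for the difference. Groups did not overlap for KRT8, KRT18 and KRT19 in the WT line, each higher, where 9.08% of all genes did not overlap in either direction. They did not overlap for SNAI1 and VIM in the mutant line, each lower, where the share over all genes was 11.5%. The arrays in these changes also entered the line difference that chose the genes. The part of that choice in the changes was not tested.

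The intervals limit how large a response these arrays could have missed on the 1 probe set that stood for each gene. In the WT line the widest, for SNAI2, ran from 0.79-fold to 1.35-fold, and that for VIM from 0.94-fold to 1.08-fold. In the mutant line the widest, again for SNAI2, ran from 0.73-fold to 1.24-fold, and that for SNAI1 from 0.76-fold to 0.96-fold. The median change of the 10 genes was 0.02 in the WT line and -0.04 in the mutant line, against 0.00 and -0.01 over all genes. The median difference in response was -0.08, against -0.01 over all genes.

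**Figure D3:**
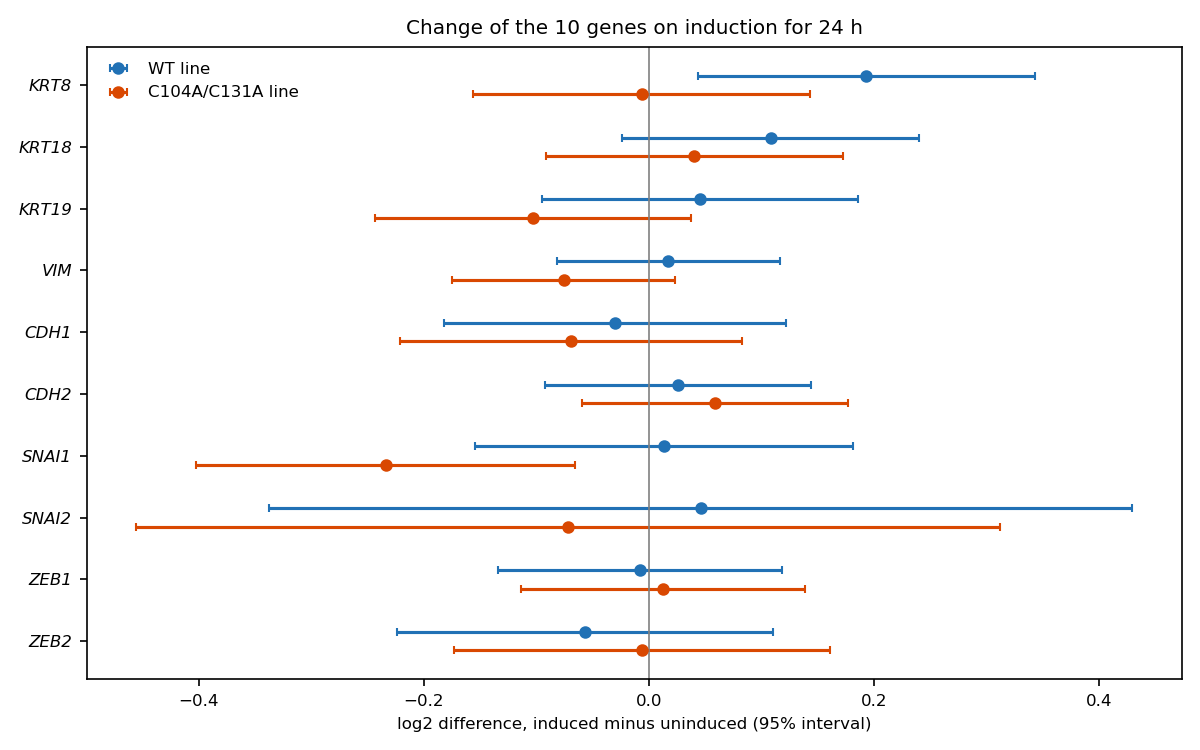
Log2 change on induction for 24 h, induced minus uninduced group mean, for each of the 10 genes in the WT line (blue) and the mutant line (orange), with 95% intervals from limma over 12 arrays. The interval excludes 0 for KRT8 in the WT line (0.04 to 0.34) and for SNAI1 in the mutant line (-0.40 to -0.07), neither of which passed after adjustment over all genes.

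Genes of the same programmes were taken from 15 lists with 307 other genes, of which 278 were measured. The lists were chosen with earlier results of these data known, so their shares between the lines are a description. On induction 0 of the 278 passed in the WT line, 0 in the mutant line and 0 in the difference of the responses (limma). Between the uninduced lines 45 were higher and 32 lower in the mutant line, 27.7% in all, against 21.4% of all genes. Between the induced lines 50 were higher and 32 lower, 29.5%, against 21.6%. The shares over all genes, 21.4% and 21.6%, are the background for the counts of each list below. Genes of chromosome 5 were shifted as a group, with a median line difference of 0.25 and 49.9% of genes higher in uninduced cells, whereas 51.6% of those of chromosome 13 and 27.1% of those of chromosome 21 were lower. None of the 10 genes lies on these 3 chromosomes. On chromosome 16, which holds CDH1, 20% of genes were lower and 4.08% higher in uninduced cells, and 24.1% and 2.5% in induced cells; the part of this in the CDH1 values was not tested. Without the genes of chromosomes 5, 13 and 21, 36 of 253 listed genes were higher and 30 lower in uninduced cells, 26.1% against 18.5% of all genes.

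Of the other keratins, 20 were measured and 0 passed in either direction in either state. Their mean level was 5.32 to 5.60 on the 12 arrays, below the array medians. Of 21 other filament and linker genes, 2 were higher and 4 lower in uninduced mutant cells, and 4 and 3 in induced cells. EPPK1, which encodes the keratin-binding linker epiplakin, was 1.42-fold higher in uninduced mutant cells (adjusted p = 6.13e-05, limma). BFSP1, a lens filament protein, was at 0.684-fold of the WT level, and INA, the neuronal filament α-internexin, at 0.726-fold. INA and BFSP1 also stood lower in induced cells, at 0.755-fold and 0.755-fold.

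Among 24 other cadherins and catenins, 5 were higher and 1 lower in uninduced mutant cells, and likewise 5 and 1 in induced cells. CDH12 was 2.21-fold higher, CTNNA1, the α-catenin that links cadherins to actin, 1.39-fold and CDH7 1.39-fold. CDH12 and CTNNA1 lie on chromosome 5. Without chromosomes 5, 13 and 21, 3 of 17 were higher and 1 lower. CDH24 was 1.33-fold higher without and 1.32-fold higher with induction.

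Of 43 epithelial junction and identity genes, 7 were higher and 4 lower in uninduced mutant cells, and 8 and 2 in induced cells. RAB25, a small GTPase of epithelial recycling endosomes, was at 0.523-fold of the WT level in uninduced cells (log2 -0.94, adjusted p = 3.14e-05, limma). DSC2, a desmosomal cadherin, was 1.42-fold higher. CD24 was 1.41-fold higher (adjusted p = 0.0241, limma), and this call was lost without WT uninduced replicate A or C or mutant uninduced replicate A or B. With all arrays kept it was also lost with array weights (adjusted p = 0.102, limma) and by ordinary two-way contrasts (adjusted p = 0.0639). LAMB3, a chain of the basement membrane laminin of epithelia, was 1.36-fold higher in induced cells and stood at 1.12-fold in uninduced cells, where its adjusted p was 0.239 (limma). Whether its 2 differences differ is covered by the test of the responses, in which 0 listed genes passed.

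Of 36 mesenchymal genes, 6 were higher and 5 lower in uninduced mutant cells, and 9 and 6 in induced cells. LUM, which encodes the collagen-binding proteoglycan lumican, was 3.06-fold higher without induction, from a log2 level of 3.48 to 5.09, both below the array medians. LOX, the enzyme that crosslinks collagen, was 1.96-fold higher, whereas SPARC, a matricellular protein, was at 0.460-fold. LOX and SPARC both lie on chromosome 5. Without chromosomes 5, 13 and 21, 4 of 29 mesenchymal genes were higher and 3 lower.

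Of 23 genes listed as other EMT transcription factors, ID inhibitors among them, 6 were higher and 2 lower in uninduced mutant cells. In induced cells 5 were higher and 1 lower. ID3 was 4.11-fold higher (log2 2.04 ± 0.07, SE, adjusted p = 1.16e-08, limma) and ID1 2.28-fold higher. Both encode inhibitors that sequester basic helix-loop-helix factors and are known targets of BMP signalling. MSX2, a homeobox gene on chromosome 5, was 2.44-fold higher. In induced cells ID3 was 3.33-fold, MSX2 2.40-fold and ID1 2.06-fold higher.

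TGF-β and BMP signalling genes had the highest share of differences among the 15 lists, with 11 of 33 higher and 6 lower in uninduced mutant cells (51.5%) and 11 and 7 in induced cells (54.5%). BMP2, a ligand of the BMP pathway, was 3.24-fold higher without induction (log2 1.69 ± 0.08, SE, adjusted p = 1.59e-07, limma) and 3.20-fold with it. TGFB2, a ligand that induces EMT in several tissues, was 1.78-fold higher, and NOG, the secreted BMP antagonist noggin, 1.66-fold. Ligand and antagonist were thus on the same side. Without chromosomes 5, 13 and 21 the count was 9 higher and 6 lower of 30 genes, 50% against 18.5% of all genes. Since the lists were chosen with earlier results known, no excess is read from this rank or these shares.

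Of 25 co-repressors and stability factors of SNAIL and ZEB proteins, 3 were higher and 6 lower in uninduced mutant cells, and 3 and 7 in induced cells. EED, a core subunit of Polycomb complex PRC2, was at 0.617-fold and RCOR1, the scaffold of the CoREST complex, at 0.679-fold of the WT level. PRMT5, an arginine methyltransferase, was 1.40-fold higher. KDM1A, the demethylase that CoREST carries, was 1.38-fold higher both without and with induction.

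Of 8 precursors of microRNAs that target ZEB or SNAIL mRNAs, 1 was lower in uninduced mutant cells and 0 differed in induced cells. MIR34A, the precursor of the miR-34a-5p sequence shown above, was at 0.768-fold (log2 -0.38 ± 0.10, SE, adjusted p = 0.0214, limma). This call was lost without WT uninduced replicate A or mutant uninduced replicate B or C. With all arrays kept it was also lost by ordinary two-way contrasts (adjusted p = 0.0509). The fit of the compared arrays alone lost it too (adjusted p = 0.0724, limma). None of the 5 miR-200 family precursors passed. MIR200C stood at 0.789-fold with an adjusted p of 0.126 (limma), and MIR200A, MIR200B, MIR429 and MIR141 had adjusted p of 0.755, 0.651, 0.375 and 0.664 (limma). The mean of the 8 precursors was 4.27 to 4.63 on the 12 arrays, below the array medians.

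**Figure D4:**
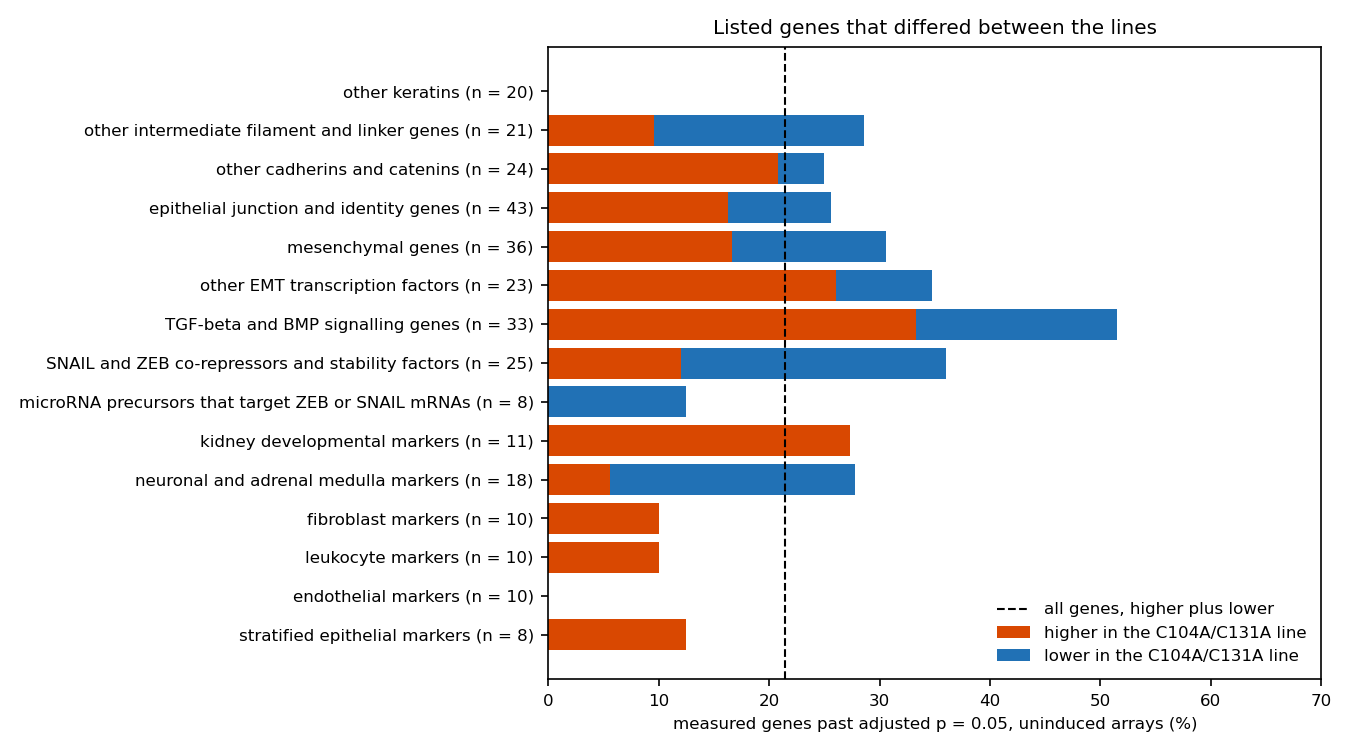
Share of the measured genes of each of the 15 lists that were higher (orange) or lower (blue) in uninduced mutant cells than in uninduced WT cells at an adjusted p under 0.05 (limma), with the number measured beside each name. The dashed line is the share of all genes in both directions, 21.4%. TGF-β and BMP signalling genes reach 51.5% and the other keratins 0%.

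Markers of cell types that could stand beside these genes were counted in the same way. Some are counted in lists above as well: INA, NEFL, NEFM and NEFH as filament genes, and KRT1, KRT5, KRT10 and KRT14 as keratins. Of 11 kidney developmental markers, 3 were higher in uninduced mutant cells, 27.3% against 21.4% of all genes in both directions. They were GATA3 (2.73-fold), a factor of the nephric duct, EYA1 (1.48-fold) and CITED1 (1.25-fold). In induced cells 3 were higher and 1 lower, 36.4% against 21.6%. The CITED1 call was lost when the uninduced arrays alone were fitted (adjusted p = 0.0504, limma). Of 18 neuronal and adrenal medulla markers, 1 was higher and 4 were lower in uninduced cells, and 2 and 4 in induced cells. NCAM1, a neural adhesion molecule, was 2.36-fold higher, and SYP and RBFOX3, markers of synaptic vesicles and of neuronal nuclei, were at 0.580-fold and 0.725-fold. The mean of the RBFOX3 probe sets did not pass (log2 -0.21, adjusted p = 0.186, limma). CHGB, a secretory granule protein, was at 0.726-fold without and 0.694-fold with induction. Among 10 fibroblast markers, all of which the mesenchymal list holds too, LUM alone differed. Among 10 leukocyte markers CD68, a lysosomal protein, alone differed in uninduced cells (1.69-fold). MS4A1 was at 0.974-fold in uninduced cells, which did not pass, and at 0.805-fold in induced cells from a log2 level of 3.96. The induced call was lost without WT induced replicate A or B or mutant induced replicate A or C. It was also lost with a mean-dependent robust prior, by ordinary two-way contrasts and with the compared arrays alone. Of 10 endothelial markers 0 differed, and of 8 stratified epithelial markers 1 did, SFN, at 1.47-fold. Single markers of other types lay on both sides of the array medians in uninduced WT cells. PTPRC was at 3.20, DCN at 3.50 and PECAM1 at 4.54, whereas CD68 was at 7.80 and SFN at 7.10. The part of these markers in the values of the 10 genes was not tested.

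The genes beside each of the 10 on its chromosome were examined next, 5 measured genes on each side in RefSeq order. Of the 90 neighbours, 7 were higher and 4 lower in uninduced mutant cells, 12.2% against 21.4% of all genes, and 13 and 5 in induced cells, 20% against 21.6%. Of the 10 neighbours of SNAI2, 1 passed, PCMTD1, at 1.29-fold without and 1.46-fold with induction. The genes directly beside SNAI2, CLXN and PPDPFL, differed by 0.04 and -0.03 in uninduced cells and by -0.16 and -0.24 in induced cells. Beside KRT8 and KRT18, 5 other keratin genes differed by -0.10 to 0.05 in uninduced cells and by -0.29 to 0.06 in induced cells. EIF4B was 1.19-fold and SPRYD3 1.37-fold higher in uninduced cells, and 1.28-fold and 1.30-fold higher in induced cells. Of the 10 neighbours of KRT19, 0 passed in either state.

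**Figure D5:**
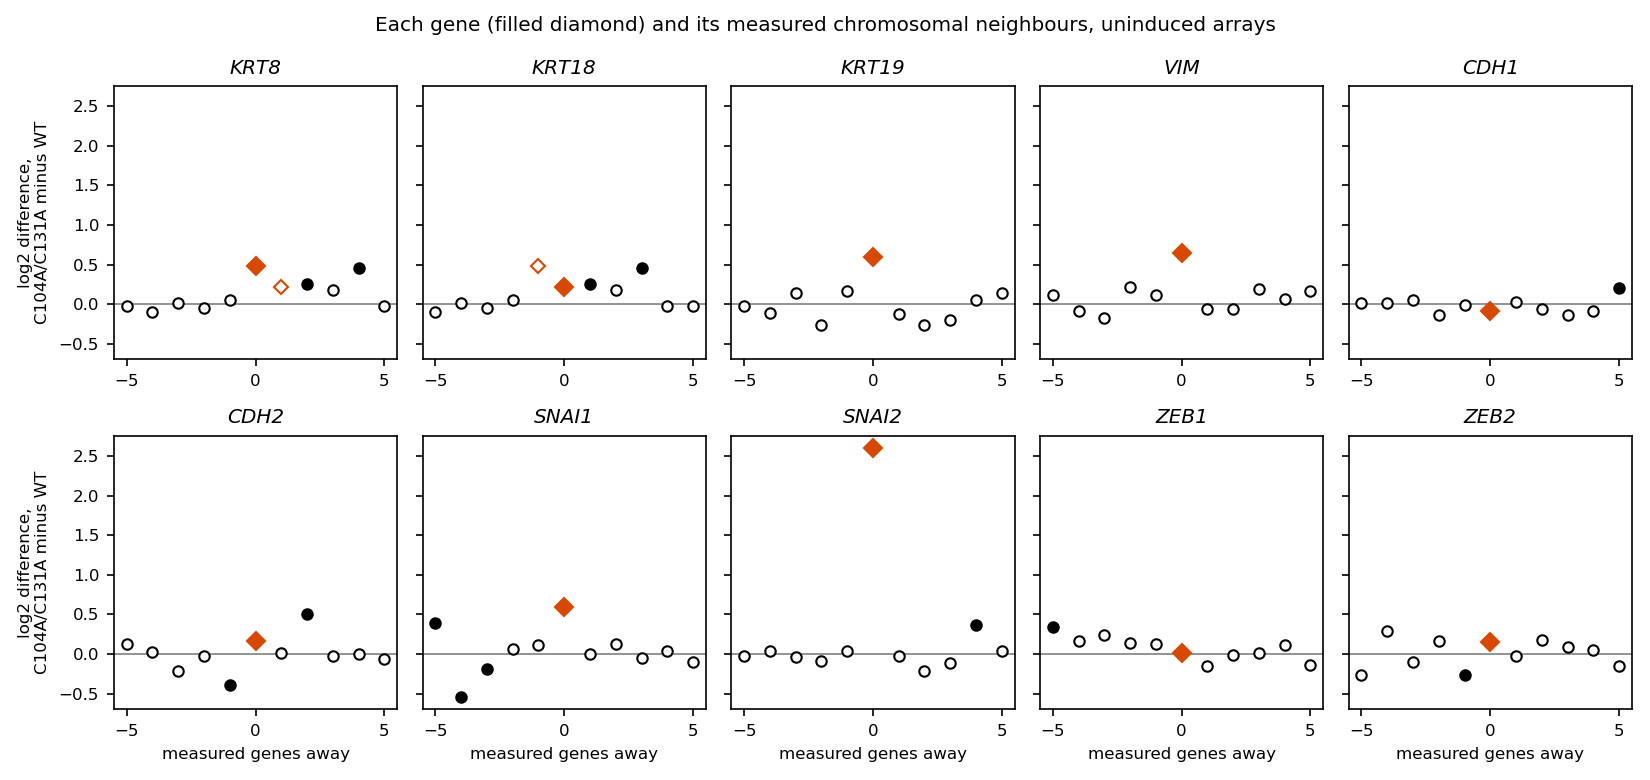
Log2 difference between the uninduced lines, mutant minus WT, for each of the 10 genes (filled diamond at 0) and its 5 measured neighbours on each side in RefSeq gene order. Filled circles passed an adjusted p of 0.05 (limma), open circles did not, and an open diamond is another of the 10 genes. SNAI2 lies at 2.60 while its neighbours lie between -0.21 and 0.37.

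The genes whose centred profiles over the 12 arrays lay nearest to that of SNAI2 were B3GALT1, SYT1, GALNT13, CHRM3 and NECTIN3, at a root mean square distance of 0.19 to 0.28 on the log2 scale. Their uninduced line differences ran from 3.97-fold for NECTIN3 to 6.97-fold for SYT1. For KRT8 the nearest were B4GALT7, CEP164, SDF4, TXNDC15 and PKIB, at 0.04 to 0.06. These 5 were between 1.27-fold and 1.37-fold higher in uninduced mutant cells, and B4GALT7 and TXNDC15 lie on chromosome 5.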

How the data were processed

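Total RNA from 12 cultures was hybridised to Affymetrix whole-transcript arrays, as the labels' protocols state. The authors deposited log2 levels; RMA is the method listed in the submitters' processing notes, with a software version not given in the sources used here. RMA equalises array distributions, so a shift of most genes would not be seen. Of 32321 probe sets, 19158 had 1 gene symbol in the platform annotation, 1388 several and 11775 none. The highest-mean probe set stood for each of 18404 genes (637 had more than 1), of which 18376 matched RefSeq (GRCh38.p14) by Entrez ID.

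A group-means model took in all 12 arrays (limma 3.58.1 and statmod 1.5.0 under R 4.3.3), and tests were two-sided. P-values were adjusted by Benjamini-Hochberg over the whole set of genes, with a threshold of 0.05. The SE printed is limma's moderated one, and 95% intervals use it. The 10 genes and the lists were chosen with earlier results of these data known. The steps were tested on simulated data.

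Named were all 10 genes, their other probe sets and pseudogenes with 1 symbol, up to 3 genes per list and comparison with the largest difference among those past the threshold without overlap, and the 5 nearest profiles of SNAI2 and KRT8. Other genes given with values (ERO1A, SIX2, SALL1, PTPRC, DCN, PECAM1, the uncalled miR-200 precursors, the neighbours named, CLDN3 and ST14, and 2 keratin probe sets with several symbols) were chosen after their values were seen, except that ERO1A checks the labels.

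Replicate letters are shared by the groups. Deviations from the group means of same-letter arrays correlated with r of 0.391, 0.139 and 0.246 in the WT line, so by a limit of 0.1 the WT arrays count as paired. The mutant line, with 0.117, -0.143 and -0.0192, does not. Processing was varied by a replicate block, centred arrays, removal of dim genes (mean up to 6.39), averaging of probe sets per gene, a mean-dependent robust prior, array weights, ordinary two-way contrasts, the compared arrays alone and each array left out. Leaving out chromosomes 5, 13 and 21 was added after seeing the data. Figures were drawn with matplotlib 3.10.9.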

Additional observations from a re-analysis of the deposited data

Results flagged for a closer look

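The second probe set of ZEB2 moved in opposite directions in the lines on induction, with every WT array lower and every mutant array higher. The difference of the responses was 0.74 on the log2 scale, with an adjusted p of 0.913 over 32321 probe sets (limma), at levels below the array medians. The first ZEB2 probe set gave 0.05.

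CDH7, a type II cadherin, read 6.50, 6.45 and 6.60 in uninduced WT cells, 6.65, 6.68 and 6.72 in induced WT cells, 6.96, 6.97 and 7.03 in uninduced mutant cells and 6.76, 6.96 and 6.94 in induced mutant cells. Every induced WT array was higher and every induced mutant array lower than the uninduced ones of its line. Over all genes, induced and uninduced groups did not overlap in either direction for 9.08% in the WT line and 11.5% in the mutant line. The difference of the responses was -0.27, with an adjusted p of 0.982 (limma), which did not pass. Groups of 3 arrays were not searched for outlying samples.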

How the results depend on the processing

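The count of the 10 genes called on induction was 0 in the WT line, in the mutant line and in the difference of the responses under every alternative run. With a replicate block it was 0 in each, and the listed genes numbered 80 in uninduced and 85 in induced cells, against 77 and 82; the block changed no call among the 10 genes. With array weights 2 of 278 listed genes passed for induction in the WT line, CLDN3 (0.25, adjusted p = 0.04, limma) and ST14 (0.43, adjusted p = 0.0361, limma), against 0; the cause was not tested. Listed genes that differed between the uninduced lines numbered 63 to 79 with 1 array left out, and 66 to 114 under the other alternatives. Between the induced lines they numbered 70 to 83 and 67 to 86. With arrays centred on their medians, the genes called over all genes fell from 1996 higher and 1938 lower to 1701 and 1513 in uninduced cells. The mean of the ZEB2 probe sets gave a difference of responses of 0.40 against 0.05. Among the genes named from the lists, 5 lost a line difference under at least 1 alternative: CD24, MIR34A, CITED1, RBFOX3 and MS4A1. With 3 arrays per group and no detection calls, small changes of dim genes could not be resolved.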
